A study of Homo sapiens with 6 samples.

Results

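The enzymes examined here reduce quinones, carbonyls and enones or open epoxides, and their genes are NQO1, NQO2, CYB5R3, PTGR1, PTGR2, CBR1, CBR3, CBR4, EPHX1 and EPHX2. These 10 genes were chosen with earlier results of these data known. They were matched by symbol to the 61541 Ensembl genes of the deposited count table, and all 10 were found there. RNA-seq was carried out on luciferases-expressing HepG2 cells, a human hepatoblastoma line carrying the red luciferase SLR3 behind antioxidant response elements (AREs) and a thymidine kinase promoter, and the green luciferase ELuc behind that promoter alone. Cells received 100 μM sedanolide, a phthalide lactone, for 24 h (n = 3 libraries), and were compared with control cells labelled for the same time (n = 3 libraries). All libraries carry both reporters on an artificial chromosome, and the labels do not say whether control cells received the DMSO in which sedanolide was dissolved. Nothing in the labels states that replicates came from separate cultures, so p-values measure the spread between these libraries, which may be technical. In such bulk RNA, fewer cells that express a gene and less of its RNA per cell cannot be told apart.

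NRF2 is a transcription factor that KEAP1 marks for degradation in unstressed cells. Electrophiles that modify KEAP1 let NRF2 accumulate, enter the nucleus and bind AREs together with small MAF proteins, and NQO1 is the textbook target. The enzymes of this set handle reactive compounds without glutathione. NQO1 and NQO2 reduce quinones directly to hydroquinones, CYB5R3 passes electrons from NADH to cytochrome b5, the PTGR enzymes saturate the double bond of enones such as oxidized prostaglandins, the CBR enzymes turn ketones and aldehydes into alcohols, and the EPHX enzymes hydrolyze epoxides to diols. Liver cells are rich in several of them because drugs, toxins and lipid oxidation products pass through this organ.

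Total expected counts were between 16420258 and 22940963 in control libraries and between 19027265 and 26714853 in sedanolide libraries. Of 10 hepatocyte lineage markers, 10 were detected, with a summed level of 33069 to 50880.0 CPM (read counts scaled to the normalized library size) in control and 24637 to 42685 CPM in sedanolide libraries. Their log2 fold changes were negative for 9 of the 10, with a median of -0.44, and none was past the thresholds. Of all features tested, 50.7% had a positive log2 fold change, and the median was 0.0057. However, 3 of the 10 markers (ALB, TTR and FGB) were lower in each treated library than in any control (all tested: 9.66%). Of 6 markers of other cell types, 3 (VWF, COL1A2 and DCN) were at 0 in all libraries, PTPRC was between 0 and 0.182 CPM, and the summed level, almost all of it LYZ, was 809 to 1323 CPM in control and 472 to 759 CPM in sedanolide libraries. The part of either marker list in the results was not tested. The ARE reporter SLR3 rose from 16.3 ± 1.73 to 65.9 ± 5.67 CPM (SD, n = 3, log2 fold change 2.02, adjusted p = 0.00324, edgeR's quasi-likelihood test). ELuc went from 18.6 ± 0.121 to 10.4 ± 2.43 CPM (-0.84, adjusted p = 0.131, edgeR), which was not past the threshold. However, ELuc was lower in each sedanolide library than in any control (all tested: 9.66%). On component 1 of a principal component analysis of log2 CPM, which held 56.1% of the variance, control 1, control 2 and sedanolide 3 lay on one side (side A), opposite control 3, sedanolide 1 and sedanolide 2 (side B). Mitochondrial transcripts took 1.43% to 2.15% of the counts on side A and 4.23% to 5.22% on side B. The labels name no batch, so each gene tested is also described within the sides.

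ARE-like sequences near these genes are shown because the red reporter of these cells is driven by AREs. The letters TGACNNNGC were searched on both strands in the 2000 bases before the start of each gene's canonical GENCODE 44 transcript (GRCh38). They were present for 7 of the 10 genes and absent for NQO2, PTGR2 and CYB5R3, and 52.5% of 20033 protein-coding genes held at least 1 match in a window of this length. In the shorter RefSeq windows (GRCh38.p14, 250 bases before to 50 after a start), 3 of the 13 windows of 8 of these genes held a match, against 13.3% of all 35116 windows. The matches below are printed on the strand that reads TGACNNNGC, 5′ to 3′, with 15 bases on each side, and the capitals mark the searched letters. The first 6 are from the longer windows and the last 2 from RefSeq windows at other annotated starts. EPHX2 also had 1 match, which is counted here and not printed.
NQO1, 455 bases upstream, chr16:69726992-69727030, minus strand: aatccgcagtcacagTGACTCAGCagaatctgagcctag
PTGR1, 705 bases upstream, chr9:111600329-111600367, plus strand: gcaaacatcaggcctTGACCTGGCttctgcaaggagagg
EPHX1, 1561 bases upstream, chr1:225808548-225808586, plus strand: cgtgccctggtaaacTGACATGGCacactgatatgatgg
CBR1, 159 bases upstream, chr21:36069850-36069888, minus strand: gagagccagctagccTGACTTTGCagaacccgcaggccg
CBR1, 522 bases upstream, chr21:36069487-36069525, minus strand: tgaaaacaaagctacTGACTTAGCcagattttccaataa
CBR4, 253 bases upstream, chr4:169010485-169010523, minus strand: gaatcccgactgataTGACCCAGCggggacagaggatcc
EPHX1, 78 bases upstream of a downstream start, chr1:225825261-225825299, plus strand: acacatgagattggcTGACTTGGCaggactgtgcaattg
CYB5R3, 211 bases upstream of a downstream start, chr22:42644814-42644852, minus strand: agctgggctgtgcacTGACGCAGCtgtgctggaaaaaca

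Of these, the NQO1 sequence is the element in which the ARE is classically studied. A second PTGR1 match, 967 bases upstream, shared its first 26 of 39 bases with the CBR3 match, 1502 bases upstream. A match says only that these letters are present, and binding of NRF2 was not measured.

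Sedanolide-treated cells had more RNA for the quinone reductase NQO1, the enone reductase PTGR1 and the microsomal epoxide hydrolase EPHX1. Of the 10 genes, 9 had enough counts to be tested and CBR3 did not. With thresholds of 0.05 on the Benjamini-Hochberg adjusted p and 1.5 on the fold change, 3 of the 9 were higher, where 0.362% of the 14104 genes and reporters tested were higher, and none was lower, where 0.312% were lower (edgeR). At an unadjusted p under 0.05, 4 were higher (all tested: 5.35%) and 2 were lower (all tested: 6.57%). DESeq2 on the same genes also called these 3 higher (all tested: 0.922%) and none lower (all tested: 1.4%). The median log2 fold change of the 9 was 0.27, beside 0.0057 over everything tested. Because the genes were chosen with earlier results of these data known, these comparisons describe the set. They do not test whether it responded as a family. The fit without sedanolide 3 called 136 features in all, beside 95 with all libraries. The other fits with a library left out called 0 to 29. Without control 1 and without sedanolide 2 none of the 9 genes was called higher, as was 0% of all features tested. None of the 9 was called without control 2 (all tested: 0.0426%) or without sedanolide 1 (all tested: 0.0757%). NQO1 and PTGR1 but not EPHX1 (adjusted p = 0.120, edgeR) were called without control 3 (all tested: 0.152%), and all 3 were called without sedanolide 3 (all tested: 0.467%). In each of these 6 fits the 3 genes were higher at an unadjusted p under 0.05, a limit that 6.27% to 23.0% of all features passed in either direction. A test against a fold change of 1.5 (glmTreat) called none of the 9 genes higher (all tested: 0.0709%).

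**Figure D1:**
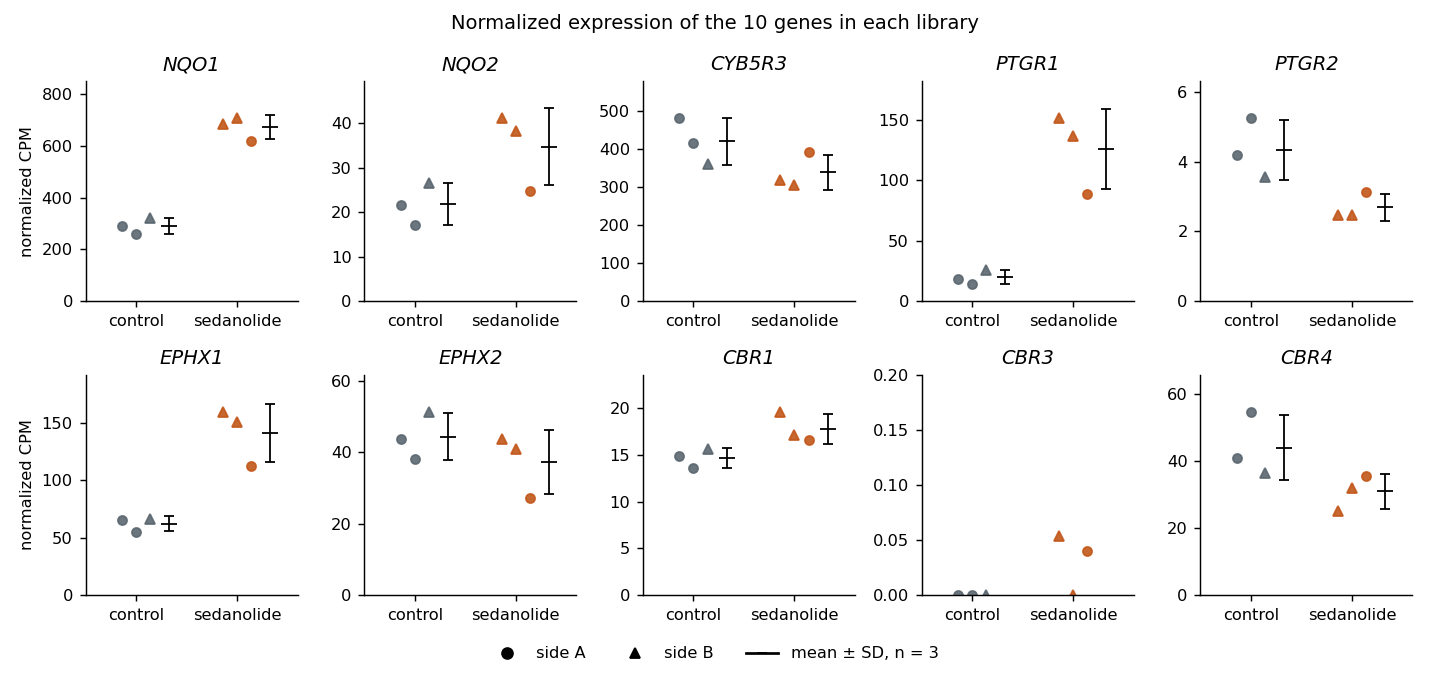
CPM (linear axis from 0) of the 10 genes in each of the 6 libraries, with circles for side A, triangles for side B of component 1, and the mean ± SD of 3 libraries beside them except for CBR3. The sedanolide libraries of NQO1, PTGR1 and EPHX1 lay above all control libraries, and CBR3 was at 0 or at 1 count.

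NQO1 (ENSG00000181019, chromosome 16 of GRCh38, 69706996 to 69726668, minus strand), which keeps quinones from cycling through semiquinones, was at 291, 258 and 320.2 CPM in control 1 to 3 and at 685, 708 and 618 CPM in sedanolide 1 to 3. All sedanolide libraries stood far above the controls, and the groups did not overlap. The fold change was 2.31 (95% interval 1.88 to 2.85), a log2 fold change of 1.21 with a standard error of 0.129 (adjusted p = 0.0172, edgeR's quasi-likelihood test). The libraries were close to each other within each group, with a coefficient of variation of 10.7% in control and 6.92% in sedanolide libraries. Its log2 fold change was 1.17 within side A and 1.12 within side B. The noncoding gene ENSG00000261602, opposite in strand, overlaps NQO1 by 575 exon bases and had counts equal to 0.375% of those of NQO1. The strand setting of the counting was not stated, so reads in such overlaps, here and at the genes below, cannot be assigned with certainty.

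NQO2 (ENSG00000124588, chromosome 6, 2987987 to 3019755), which prefers dihydronicotinamide riboside to NADPH as electron donor, was expressed at 21.6, 17.2 and 26.6 CPM in control 1 to 3 and at 41.3, 38.3 and 24.9 CPM in sedanolide 1 to 3. Sedanolide 1 and 2 stood above all controls, but sedanolide 3 lay below control 3. The log2 fold change was 0.68 (standard error 0.239, 95% interval 0.11 to 1.24), which did not pass the threshold (adjusted p = 0.331, edgeR). Within the sides it was 0.36 (A) and 0.58 (B). LINC01011, in the same orientation, overlaps NQO2 by 292 exon bases, with 4.06% as many counts.

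CYB5R3 (ENSG00000100243, chromosome 22, 42615730 to 42720870, minus strand), the reductase of cytochrome b5, was at 481, 416 and 360.4 CPM in control 1 to 3 and at 319, 306 and 391 CPM in sedanolide 1 to 3. The groups overlapped, and in both of them the side A libraries were the higher ones. The log2 fold change was -0.31 (standard error 0.157, 95% interval -0.68 to 0.062, adjusted p = 0.496, edgeR), so that a fold change of 1.5 downwards was within the interval. Within the sides it came to -0.19 and -0.21.

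PTGR1 (ENSG00000106853, chromosome 9, 111549722 to 111599893, minus strand), also known as leukotriene B4 dehydrogenase, showed the largest fold change of the 9 genes tested. Its level was 18.4, 14.7 and 26.2 CPM in control 1 to 3 and 151, 136 and 88.8 CPM in sedanolide 1 to 3. All sedanolide libraries lay far above the controls, although the groups were spread widely, with a coefficient of variation of 29.7% in control and 26.1% in sedanolide libraries. The fold change was 6.37 (95% interval 3.99 to 10.2), a log2 fold change of 2.67 with a standard error of 0.286 (adjusted p = 0.0172, edgeR). Within side A it was 2.42 and within side B 2.45, both below the value over all libraries. ZNF483 on the opposite strand shares 78 exon bases with PTGR1, and its counts came to 11.8% of those of PTGR1.

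PTGR2 (ENSG00000140043, chromosome 14, 73851831 to 73885726), a second reductase of oxidized prostaglandins, had few reads, with 63 to 124 counts in the controls and 46 to 79 after sedanolide. It stood at 4.18, 5.25 and 3.56 CPM in control 1 to 3 and at 2.47, 2.47 and 3.13 CPM in sedanolide 1 to 3. The groups did not overlap, with sedanolide below control. The log2 fold change was -0.69 (standard error 0.210, 95% interval -1.18 to -0.19), opposite in sign to that of PTGR1, and was not past the threshold after adjustment (adjusted p = 0.263, edgeR). Within the sides it was weaker, at -0.56 (A) and -0.50 (B). The protein-coding model ENSG00000258653, in the same orientation, overlaps PTGR2 by 989 exon bases, with 7.49% as many counts.

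EPHX1 (ENSG00000143819, chromosome 1, 225810124 to 225845563), which hydrolyzes epoxides of drugs and aromatic compounds in the endoplasmic reticulum, was at 65.7, 54.8 and 66.2 CPM in control 1 to 3 and at 160.0, 151 and 112 CPM in sedanolide 1 to 3. The groups were well separated, and sedanolide 3 was again the lowest treated library. The fold change was 2.27 (95% interval 1.72 to 2.98), a log2 fold change of 1.18 with a standard error of 0.168 (adjusted p = 0.0353, edgeR). Within side A it was 0.90 and within side B 1.23. TMEM63A on the opposite strand shares 28 exon bases with EPHX1 and had 25.9% of its counts.

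EPHX2 (ENSG00000120915, chromosome 8, 27490781 to 27545564), the soluble hydrolase of epoxy fatty acids, was at 43.8, 38.1 and 51.4 CPM in control 1 to 3 and at 43.7, 41.0 and 27.1 CPM in sedanolide 1 to 3. Treated and control libraries overlapped, with sedanolide 3 below all others. The log2 fold change was -0.25 (standard error 0.208, 95% interval -0.74 to 0.24, adjusted p = 0.671, edgeR). It was -0.59 within side A and -0.28 within side B, so that both within-side values were more negative than the pooled one.

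The carbonyl reductases showed no call. CBR1 (ENSG00000159228, chromosome 21, 36069941 to 36073166), the main cytosolic enzyme of the family and a reductase of doxorubicin, was at 14.8, 13.6 and 15.7 CPM in control 1 to 3 and at 19.6, 17.1 and 16.6 CPM in sedanolide 1 to 3. Each treated library was above each control, by a small margin. The log2 fold change was 0.27 (standard error 0.130, 95% interval -0.030 to 0.58, adjusted p = 0.461, edgeR), and the upper end of the interval is a fold change of 1.49. Within the sides it was 0.23 (A) and 0.22 (B). CBR4 (ENSG00000145439, chromosome 4, 168863770 to 169010275, minus strand), a mitochondrial enzyme of fatty acid synthesis that also reduces quinones, was at 41.0, 54.9 and 36.3 CPM in control 1 to 3 and at 25.1, 32.1 and 35.6 CPM in sedanolide 1 to 3. Its groups were separated only narrowly, control 3 and sedanolide 3 being close. The log2 fold change was -0.51 (standard error 0.200, 95% interval -0.98 to -0.039, adjusted p = 0.379, edgeR). Within the sides it was weaker, at -0.41 (A) and -0.35 (B).

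CBR3 (ENSG00000159231, chromosome 21, 36135079 to 36146562) lies 61912 bases from CBR1 and encodes a closely related enzyme, so reads that match both would be divided by the quantification. It had 0 counts in control 1 to 3 and 1, 0 and 1 counts in sedanolide 1 to 3. Where no read was counted, up to 3 counts are still possible in a library, which is 0.116 to 0.182 CPM at these depths and covers counting error only. CBR3 was therefore not detectable in control cells, and no fold change is given. CBR3-AS1 on the opposite strand had 6 counts over all libraries.

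**Figure D2:**
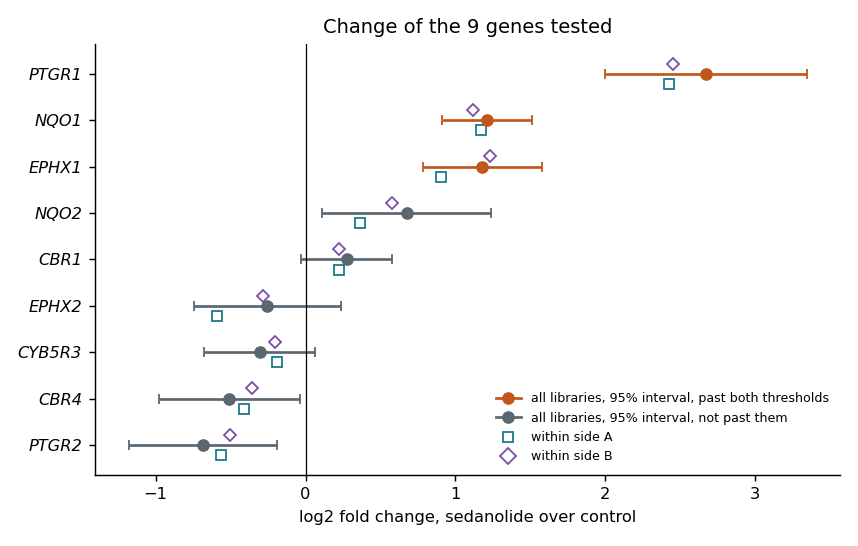
Log2 fold change (sedanolide over control) of the 9 genes tested, with filled points and bars for the edgeR estimate from all 6 libraries and its 95% interval, and open symbols for the difference of mean log2 CPM (with 1/8 CPM added) within side A (squares) and side B (diamonds). PTGR1, NQO1 and EPHX1, in orange, were past both thresholds, and every gene had the same sign within both sides as over all libraries.

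Among the 9 genes tested, 4 had treated libraries entirely above the controls (NQO1, PTGR1, EPHX1 and CBR1; all tested: 8.69%) and 2 had them entirely below (PTGR2 and CBR4; all tested: 9.66%). Within each condition the sides compare 1 library with 2, and the share of all features with matching signs was not counted. In both conditions, 6 genes (NQO1, NQO2, PTGR1, EPHX1, EPHX2 and CBR1) were higher on side B and 3 (PTGR2, CBR4 and CYB5R3) were higher on side A. The difference of side B over side A was 0.67 in control and 0.69 in sedanolide libraries for PTGR1, and 0.46 and 0.68 for NQO2, on the log2 scale. For NQO1 it was 0.22 and 0.17, small beside the difference between the conditions, and for CBR1 it was 0.14 in both. Since these genes took part in defining the sides, the values are a description, and because sedanolide has 2 libraries on side B and control has 1, they bear on the pooled fold changes. With the side as a term, NQO1, PTGR1 and EPHX1 were again the genes called (all tested: 1.07% higher), with log2 fold changes of 1.15, 2.45 and 1.06 and adjusted p-values of 2.73e-04, 3.02e-05 and 0.00190 (edgeR). This fit called 381 features in all, beside 95 without the term. The side was derived from these same counts, so its p-values are a description and no separate check. Under this term EPHX2 came to -0.43 and NQO2 to 0.47, each with an adjusted p of 0.0705 and so not past the threshold.

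To ask whether enzymes with related reactions changed unequally, the log2 ratio of their CPM + 1 was taken within each library. NQO1 over NQO2 was 3.69 ± 0.147 in control and 4.26 ± 0.291 in sedanolide libraries (SD, n = 3), a difference of 0.57, with 0.82 within side A and 0.56 within side B. EPHX1 over EPHX2 was 0.48 ± 0.112 and 1.90 ± 0.0931, a difference of 1.42. Its standard deviations were the smallest of the 3 ratios that could be interpreted, and within the sides the difference came to 1.47 and 1.49. PTGR1 over PTGR2 was 1.94 ± 0.626 and 5.07 ± 0.548, a difference of 3.13, with 2.83 and 2.81 within the sides. In these 3 pairs the groups did not overlap. The two-sided exact permutation test gave p = 0.1, the smallest that 3 against 3 libraries allow, and 0.1 after adjustment over the 4 pairs examined. The first gene of each of these 3 pairs was itself called higher, so the separation partly restates those calls. How often other pairs of genes separate was not counted. The ratio of CBR1 to CBR3 (difference 0.21, also p = 0.1 in the exact permutation test) rests on the added 1 CPM, as CBR3 had next to no counts, and is not interpretable.

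**Figure D3:**
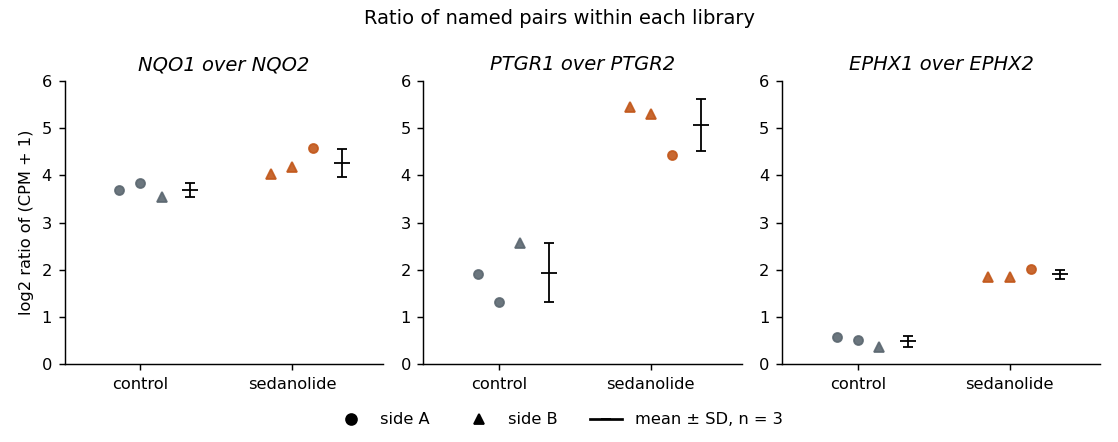
Log2 ratio of CPM + 1 between 2 enzymes within each library, for NQO1 over NQO2, PTGR1 over PTGR2 and EPHX1 over EPHX2, with circles for side A, triangles for side B and the mean ± SD of 3 libraries. All sedanolide ratios lay above the control ratios, and the shift was 0.57, 3.13 and 1.42.

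Levels between genes were compared in TPM, the authors' unit that corrects for transcript length and library size, for the 8 genes of the second deposited table (PTGR2 and CBR3 are not listed in it). In control cells the order of mean levels was CYB5R3 (424 ± 92.6 TPM), NQO1 (412 ± 32.2), EPHX1 (63.0 ± 2.27), EPHX2 (50.4 ± 4.65), NQO2 (36.9 ± 5.21), CBR1 (27.6 ± 1.97), PTGR1 (26.7 ± 5.92) and CBR4 (20.4 ± 5.93; SD, n = 3). The ranges of CYB5R3 and NQO1 overlapped, as did those of CBR1 and PTGR1 and of PTGR1 and CBR4. In sedanolide-treated cells the order was NQO1 (859 ± 35.5 TPM), CYB5R3 (328 ± 56.7), PTGR1 (157 ± 31.8), EPHX1 (132 ± 14.7), NQO2 (54.3 ± 9.52), EPHX2 (38.1 ± 7.01), CBR1 (29.9 ± 2.61) and CBR4 (13.6 ± 3.02; SD, n = 3). PTGR1 moved from the seventh place to the third, where its range overlapped that of EPHX1, and the ranges of NQO1 and CYB5R3 did not overlap. EPHX2 and CBR1 overlapped in this group.

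**Figure D4:**
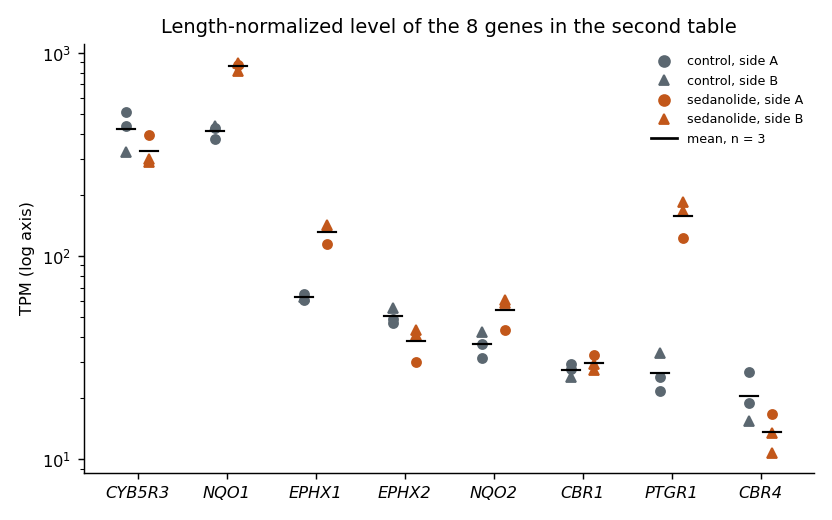
TPM on a log axis of the 8 genes in the second deposited table, in the order of their control means, with 1 point per library and a black line for the mean of 3 libraries. PTGR1 went from 26.7 to 157 TPM and passed EPHX1, EPHX2, NQO2 and CBR1, while CBR4 had the lowest mean in both conditions, although PTGR1 was below it in control 2.

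In the same table, limma on log2(TPM + 1) called NQO1, PTGR1 and EPHX1 of the 8 genes (all tested: 0.300% higher), with log2 fold changes of 1.06, 2.52 and 1.05 and adjusted p-values of 0.0211, 0.00897 and 0.0254. Values in this table were lower than those from the counts for all 8 genes, by a log2 difference between -0.17 and -0.028. The whole table was shifted in this way, with a median difference of -0.11 over the 10948 genes tested in both. Overlap between groups changed with the scale. In TPM, 4 of the 8 genes had treated libraries entirely above the controls (all in the table: 5.9%) and 1 had them entirely below (all in the table: 11.3%). EPHX2 was lower in all sedanolide libraries in TPM (30.1 to 43.3 against 46.8 to 55.7) and NQO2 was higher in all of them (43.3 to 60.6 against 31.7 to 42.1), whereas in CPM both overlapped. CBR1 and CBR4, separated in CPM, overlapped in TPM.

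Other genes of the same or related reactions were counted from lists of their own. Of 45 such genes, 39 had enough counts. None was lower past both thresholds (all tested: 0.312%), and 1, TXNRD1, was higher (all tested: 0.362%). It encodes thioredoxin reductase 1, which also reduces quinones, and was at 169, 183 and 161 CPM in control 1 to 3 and at 456, 494 and 493 CPM in sedanolide 1 to 3. It rose by a log2 fold change of 1.49, with a standard error of 0.113 (adjusted p = 0.00469, edgeR). The median log2 fold change of the 39 genes was 0.057, with 27 positive and 12 negative (all tested: 50.7% positive). Among the 8 genes listed as quinone reductases, a broad grouping written from general knowledge, the median was 0.27, near that of the 9 genes above. The 16 short-chain carbonyl reductases tested lay between -0.26 and 0.41, and RDH14 had the largest value (0.41, adjusted p = 0.539, edgeR). Of the 7 enone and medium-chain reductases, PECR, a peroxisomal enoyl-CoA reductase, was farthest from 0 (-0.43, adjusted p = 0.270, edgeR). Of the epoxide hydrolases EPHX3 had 0 counts, EPHX4 had too few to be tested, and LTA4H, which makes leukotriene B4, was at 0.0083 (adjusted p = 0.977, edgeR). In the cytochrome b5 system, CYB5A, the electron acceptor of CYB5R3, was at 108, 81.3 and 108 CPM in control 1 to 3 and at 167, 161 and 148 CPM in sedanolide 1 to 3. Its groups did not overlap, but its log2 fold change of 0.68 (standard error 0.146) was not past the threshold (adjusted p = 0.130, edgeR). The other 6 genes of this system lay between -0.27 and 0.50.

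**Figure D5:**
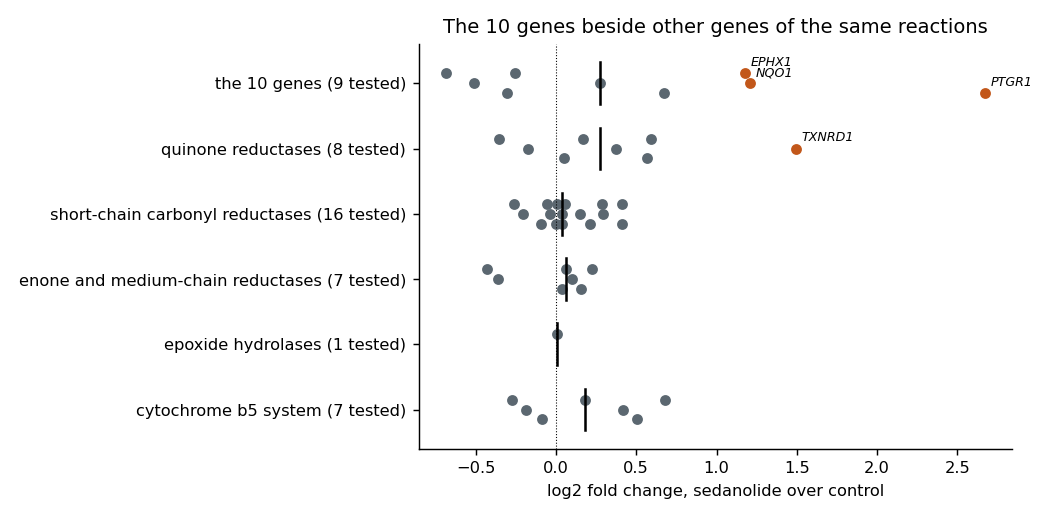
Log2 fold change (sedanolide over control, edgeR) of the 9 genes tested of the set and of 39 other genes of the same or related reactions in 5 groups. Black lines mark group medians. NQO1, PTGR1, EPHX1 and TXNRD1, in orange, were past both thresholds, and the medians lay between 0.0083 and 0.27.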

How the data were processed

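The authors captured mRNA and prepared directional paired-end libraries. Reads were checked with FastQC and trimmed with Trimmomatic, STAR placed them on GRCh38, and RSEM gave the gene values (versions, annotation release and strand setting not given in the sources used here). They deposited expected counts from RSEM, not normalized, and a second table of log2(TPM + 1) for 11006 genes, the added 1 being read from the values. Expected counts were rounded, filtered with filterByExpr, normalized by TMM and tested with the robust quasi-likelihood method of edgeR 4.0.16 (R 4.3.3) with the condition as the only term. Adjusted p-values are Benjamini-Hochberg values over all 14104 features tested. Intervals are 95% intervals from the same fit. DESeq2 1.42.0 (the authors' test) and limma 3.58.1 on the second table were alternatives. Other scalings, filters and models and leaving out each library in turn were tried too. Total counts per library were 16420258 to 26714853, and limits on counts of 0 cover counting error only. The fit was also run on simulated counts with a single dispersion and no split on component 1, so that run does not cover the split seen here. Positions are from GENCODE 44, promoter windows from RefSeq.

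The 10 genes and the lists of other genes, written from general knowledge, were chosen with earlier results of these data known. Beside the 10 genes, those past both thresholds and the gene farthest from 0 in each list are named. HSD17B8, EPHX3 and EPHX4 were named after their values were seen. Aldo-keto reductases were left out as a family of their own. Differences within the sides of component 1 are of mean log2 CPM with 1/8 CPM added, and the sides were derived from these libraries. Counts within a condition differed by more than sampling noise, so no library was a duplicate.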

Additional observations from a re-analysis of the deposited data

How the results depend on the processing

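The count of genes called higher was 3 with DESeq2, both other scalings, both other filters, no fold change threshold, the side as a term, and both forms of the second table. It was 0 with glmTreat, which tests against a fold change of 1.5 (adjusted p = 0.0523 for PTGR1, 0.0933 for NQO1 and 0.278 for EPHX1), where 12 of the 14104 features were called in all, and ranged from 0 to 3 over the 6 fits with a library left out, which called 0 to 136 features in all. None was called lower under any alternative. With the replicate number as a replicate block it was 0 (adjusted p from 0.424 to 0.489, no gene of all tested called, 772 at an unadjusted p under 0.05). Deviations of same-numbered libraries correlated at -0.13, -0.30 and -0.73. These values also carry the split on component 1, so they cannot settle whether the numbers pair the libraries. The labels do not say whether same-numbered libraries were prepared together. No log2 fold change reversed in any of the 17 alternatives (15 for PTGR2). They ranged from 1.06 to 1.29 for NQO1, 2.45 to 2.93 for PTGR1 and 1.05 to 1.32 for EPHX1. The differences of the ratios kept their signs, except for CBR1 over CBR3, which was -0.095 with 0.1 CPM added instead of 1. The left-out fits gave 0.41 to 0.69 for NQO1 over NQO2, 2.83 to 3.45 for PTGR1 over PTGR2 and 1.36 to 1.47 for EPHX1 over EPHX2. At this depth CBR3 could not be tested.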

Other observations

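HSD17B8, the partner of CBR4 in mitochondrial ketoacyl reduction, had 1, 11 and 0 counts in control 1 to 3 and 1, 2 and 6 in sedanolide 1 to 3, too few to be tested, while CBR4 had at least 467 counts in each library.

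The TPM of the 8 genes in the second table per CPM from the counts had a median of 1.22, 1.37 and 1.24 in the side A libraries and of 1.18, 1.07 and 1.14 in the side B libraries. The cause of this difference was not tested.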
